A study of Morchella sextelata with 15 samples.

Results

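The 150 transcripts described here are those whose level differed most between the 3 untreated libraries of a study of mycelium of Morchella sextelata. They were chosen by the values of the control libraries themselves. A row of the FPKM table was eligible if its mean over the 3 control libraries was at least 10 FPKM (fragments scaled for transcript length and library total). The 100 rows with the highest such mean were left out. Of the 20602 rows, 6285 reached that mean and 6185 were eligible. Each eligible row was then ranked by the ratio of its highest to its lowest control value after 0.1 FPKM was added to both, and the first 150 were taken.

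Morchella sextelata is a cultivated black morel, an ascomycete fungus that grows as branching hyphae, the mycelium, before it forms fruiting bodies. The study compared mycelium grown on medium with one of 4 herbicides with mycelium grown without one. Trifluralin and pendimethalin are dinitroanilines, which in plants block the assembly of microtubules. S-metolachlor and acetochlor are chloroacetanilides, which in plants stop very-long-chain fatty acids from being made.

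There were 15 libraries in 5 groups of 3, namely trifluralin, pendimethalin, S-metolachlor, acetochlor and the control. All were labelled as wild-type mycelium. According to the series text, the mycelium was cultured for 5 days at 20 °C on potato dextrose agar (PDA). Each herbicide was given at 10 times its usual application concentration, and the control medium held none. The herbicides were thus matched as multiples of each product's rate and not as concentrations. No label says whether the 3 libraries of a group came from separate cultures, so all p-values measure only the spread between these libraries, which may be technical. In bulk RNA, fewer cells of a kind and less RNA per cell cannot be told apart.

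The 15 libraries held 22923346 to 24766457 expected counts, so no library was much shallower than the others. The control libraries held 23921235, 24309184 and 24101593. The biological coefficient of variation, estimated over all tested transcripts of a group, was 0.429 for trifluralin, 0.550 for pendimethalin, 0.287 for S-metolachlor, 0.395 for acetochlor and 0.415 for the control. The files do not pair transcripts with gene names, and a search among the 13182 genes of the reference gene table found no match, so the members are given by their transcript names without a function. No gene name of the Trinity assembly holds more than 1 member. Over the whole series, no such name with the same last digit holds more than 1 row. The absence of shared names therefore does not show that the members are distinct genes.

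Among the 150 members the control ratio was 413 at the top, 8.01 at the median and 5.43 at the end of the list. Over all eligible rows the median ratio was 1.48. These values chose the members and are given as a description. The last members inside the limit were TRINITY_DN3621_c0_g1_i2_4, with a ratio of 5.44 and control levels of 26.9, 51.3 and 9.36 FPKM, and TRINITY_DN12613_c0_g1_i1_2, with a ratio of 5.43 and 46.5, 102 and 18.8 FPKM. The first rows outside it were TRINITY_DN8714_c0_g1_i9_1, with a ratio of 5.41 and 19.0, 64.0 and 11.7 FPKM, and TRINITY_DN3408_c0_g1_i1_2, with a ratio of 5.40 and 146, 174 and 790 FPKM. The list therefore ends where neighbouring rows differ little. The mean control level of the members ran from 10.0 to 523 FPKM with a median of 34.0, and the median over the eligible rows was 30.7 FPKM.

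No single control library stood apart in all members, and replicates 2 and 3 lay at opposite ends in most of them. The library farther from the middle one on the log2 scale was replicate 3 in 81 members, replicate 2 in 66 and replicate 1 in 3. Where replicate 3 stood apart, it was the low one in 46 members and the high one in 35. Where replicate 2 stood apart, it was high in 65 members and low in 1. Over the eligible rows, replicate 3 was the low one in 1889 and the high one in 766, and replicate 2 was high in 1772 and low in 814. Replicate 1 lay between the other control libraries in 112 members. The larger gap was at least 2 times the smaller in 75 of the 150 members, against 3668 of the 6185 eligible rows. In the other members the 3 libraries were spread more evenly.

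The eligible rows as a whole were also most often set apart by replicate 3 or replicate 2. Replicate 3 stood apart in 42.9% of eligible rows, replicate 2 in 41.8% and replicate 1 in 15.3%. Across the eligible rows, Spearman's rho was 0.917 between control replicates 1 and 2, 0.907 between 1 and 3 and 0.816 between 2 and 3. Replicates 2 and 3 were thus the least alike; transcripts are not independent replicates, so these are descriptions. The 100 most abundant transcripts took 28.1%, 25.1% and 30.9% of the counts of control replicates 1, 2 and 3. The part of this difference in the members' spread was not tested.

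**Figure D1:**
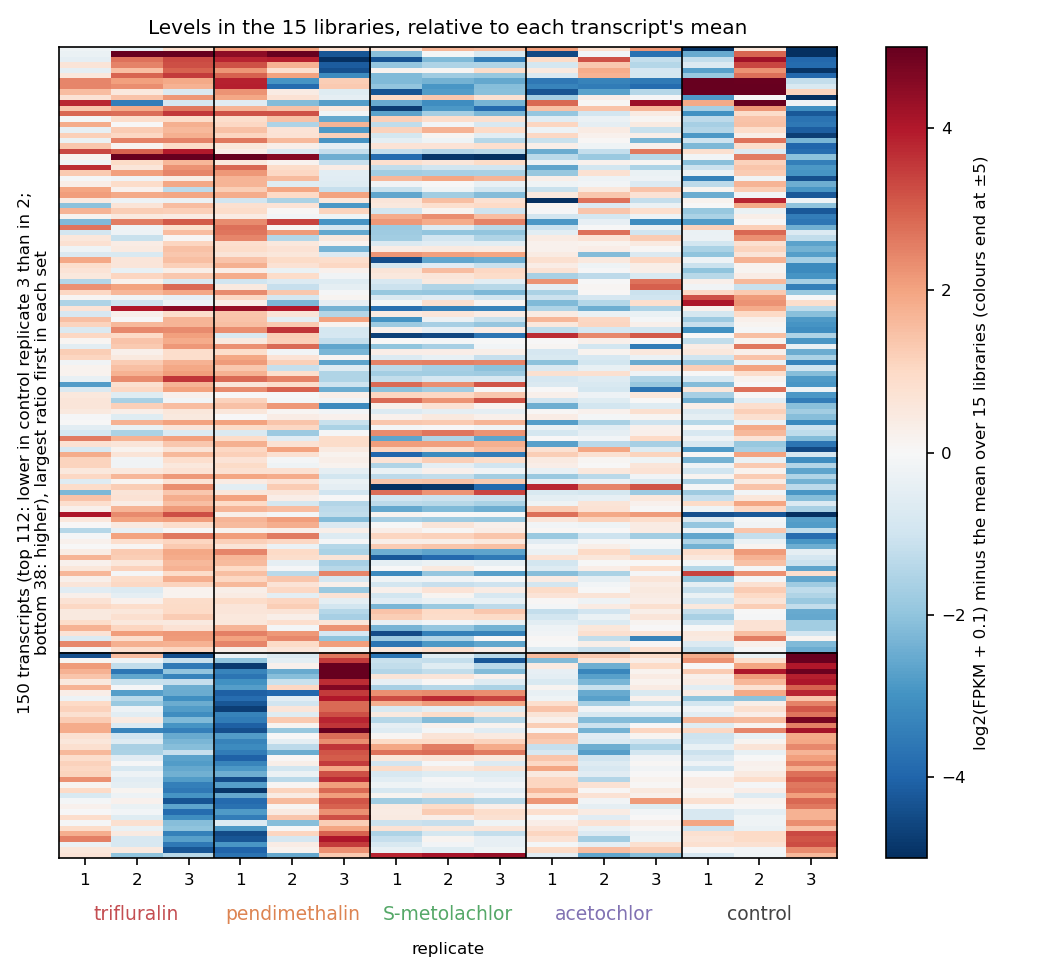
Level of each of the 150 transcripts (rows) in the 15 libraries (columns), as log2(FPKM + 0.1) minus the mean of that row over all libraries, with red above and blue below the mean. The upper 112 rows are lower in control replicate 3 than in replicate 2, and the lower 38 are higher. In the lower 38 rows pendimethalin replicate 3 is red and pendimethalin replicate 1 is mostly blue, while the 3 S-metolachlor columns look alike.

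The members fall into sets by the direction of that axis. In 112 members control replicate 3 was lower than replicate 2, and in 38 it was higher. The first set makes up 74.7% of the members, while 67.2% of the eligible rows had that order. Members of the set of 112 had a median level of 19.5 FPKM in control replicate 1, 62.7 in replicate 2 and 5.20 in replicate 3. For the set of 38 it was 16.6, 25.5 and 120 FPKM. The first set thus peaked in replicate 2 and the other set in replicate 3.

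The largest ratio belonged to TRINITY_DN1713_c0_g1_i1_2, the member with the largest ratio among those set apart by control replicate 2. Its levels were 160, 143 and 321 FPKM with trifluralin, 765, 745 and 321 with pendimethalin, 267, 579 and 529 with S-metolachlor, 786, 336 and 854 with acetochlor, and 1.99, 273 and 0.562 in the control. Control replicate 2 lay among the treated libraries, and the other 2 control libraries were below all of them.

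For control replicate 3 as the low library, the largest ratios were those of TRINITY_DN7919_c0_g1_i3_3 (86.0) and TRINITY_DN8733_c0_g2_i1_1 (67.5). TRINITY_DN7919_c0_g1_i3_3 had 12.5, 9.39 and 8.42 FPKM with trifluralin, 32.9, 0.196 and 5.35 with pendimethalin, 0.403, 0.344 and 0.293 with S-metolachlor, 0.0952, 0.129 and 0.10 with acetochlor, and 86.0, 70.3 and 0.902 in the control. TRINITY_DN8733_c0_g2_i1_1 had 16.0, 14.6 and 9.65 FPKM with trifluralin, 43.6, 0.105 and 7.19 with pendimethalin, 0.649, 0.286 and 0.579 with S-metolachlor, 0.197, 0.160 and 0.103 with acetochlor, and 118, 106 and 1.65 in the control. Both were low in control replicate 3, in pendimethalin replicate 2 and in all S-metolachlor and acetochlor libraries. Their profiles over the 15 libraries correlated with r = 0.994, a pair picked out because its value is among the highest.

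For control replicate 3 as the high library, the leading members were TRINITY_DN7199_c0_g1_i3_4 (ratio 73.4) and TRINITY_DN6512_c0_g2_i3_3 (17.3). TRINITY_DN7199_c0_g1_i3_4 had 6.06 FPKM in trifluralin replicate 2 and is listed at practically 0 in the other 2 trifluralin libraries. It had 1.57, 1.16 and 13.1 FPKM with pendimethalin, 0.0668, 1.29 and 0.731 with S-metolachlor, 6.25, 5.08 and 3.90 with acetochlor, and 7.60, 1.59 and 124 in the control. Control replicate 3 was the highest of all 15 libraries and pendimethalin replicate 3 the second highest. TRINITY_DN6512_c0_g2_i3_3 had 0.372, 1.27 and 21.5 FPKM with pendimethalin and 9.02, 3.29 and 58.4 in the control, and at most 2.79 FPKM in any other library. Again control replicate 3 was the highest library and pendimethalin replicate 3 came after it.

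Only 3 members were set apart by control replicate 1, and the one with the largest ratio was TRINITY_DN1350_c0_g1_i2_4 (12.6). It had 7.54, 0.0865 and 0.476 FPKM with trifluralin, 0.130, 0.294 and 543 with pendimethalin, 0.722, 0.865 and 0.409 with S-metolachlor, 1.64, 0.138 and 2.49 with acetochlor, and 5.39, 37.2 and 69.2 in the control. Pendimethalin replicate 3 exceeded every control library, while the other 11 treated libraries were at or below 7.54 FPKM.

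**Figure D2:**
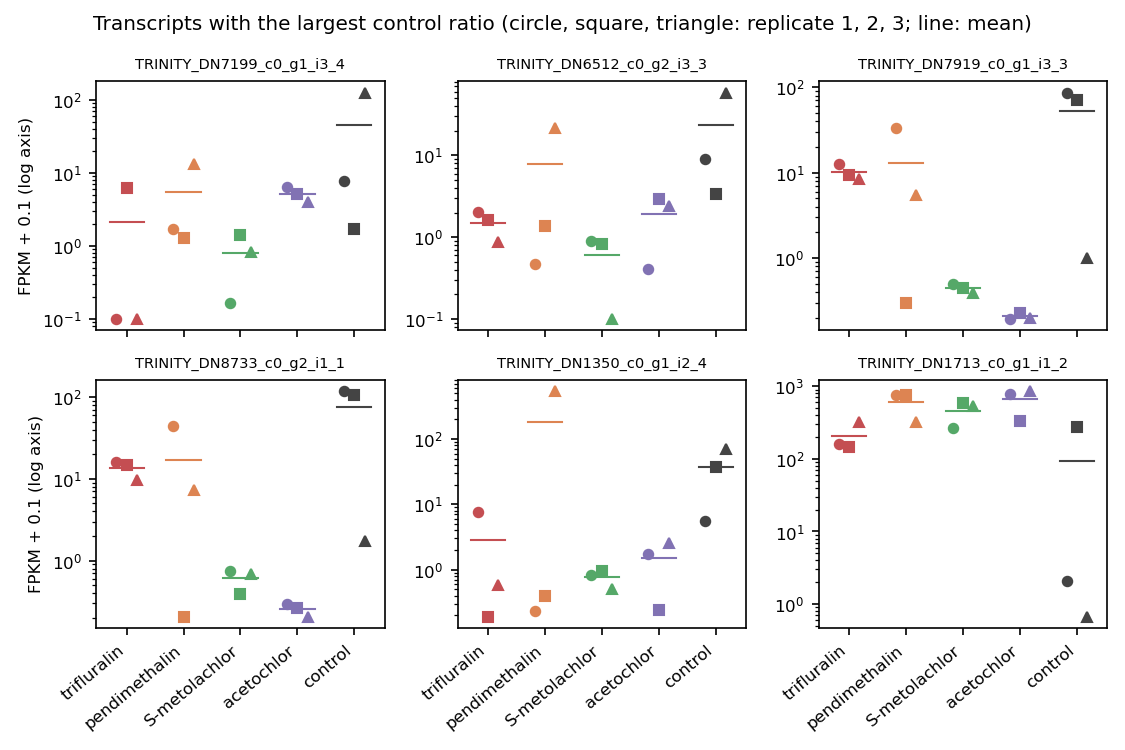
FPKM plus 0.1 on a log axis in each library (points, 3 per group) for the transcripts with the largest control ratios per control library standing apart. The groups run from trifluralin on the left to the control on the right, and the control points lie far apart, from 0.562 to 273 FPKM in TRINITY_DN1713_c0_g1_i1_2.

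The herbicide libraries took no part in the choice, so their spread is independent of the rule. The same members also differed between the libraries of pendimethalin and of trifluralin. The value used is the log2 difference of a library from the mean of its own group. For the set of 112, the median of this difference was 0.80, 0.27 and -0.99 in pendimethalin replicates 1, 2 and 3. It was -0.40, -0.07 and 0.49 in the 3 trifluralin libraries. In S-metolachlor it was -0.10, 0.11 and -0.03, and in acetochlor -0.14, 0.06 and 0.13. The transcripts that were low in control replicate 3 were thus mostly low in pendimethalin replicate 3 too. Pendimethalin replicate 3 was the lowest of its group in 82 of the 112 members, against 61.9% of all eligible rows with the same control order. For comparison, those of the eligible rows that are no members had medians of 0.14, 0.03 and -0.16 in the 3 pendimethalin libraries.

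The set of 38 showed a wider spread in the opposite direction. Its median difference was -3.46, -0.03 and 3.22 in pendimethalin replicates 1, 2 and 3, and 1.69, 0.20 and -1.89 in the trifluralin libraries. Acetochlor had 0.74, -0.80 and -0.06, and S-metolachlor -0.16, 0.20 and 0.01. Pendimethalin replicate 3 was the highest of its group in 38 of 38 members, against 65.6% of all eligible rows with the same control order. Pendimethalin replicate 1 was the lowest in 36 of the 38, against 52.7% of the other eligible rows with that order. Among the trifluralin libraries, replicate 1 was the highest in 34 members, against 35.3% of those rows, and replicate 3 the lowest in 34, against 53.8%. The high libraries therefore had different replicate numbers in the pendimethalin and trifluralin groups.

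**Figure D3:**
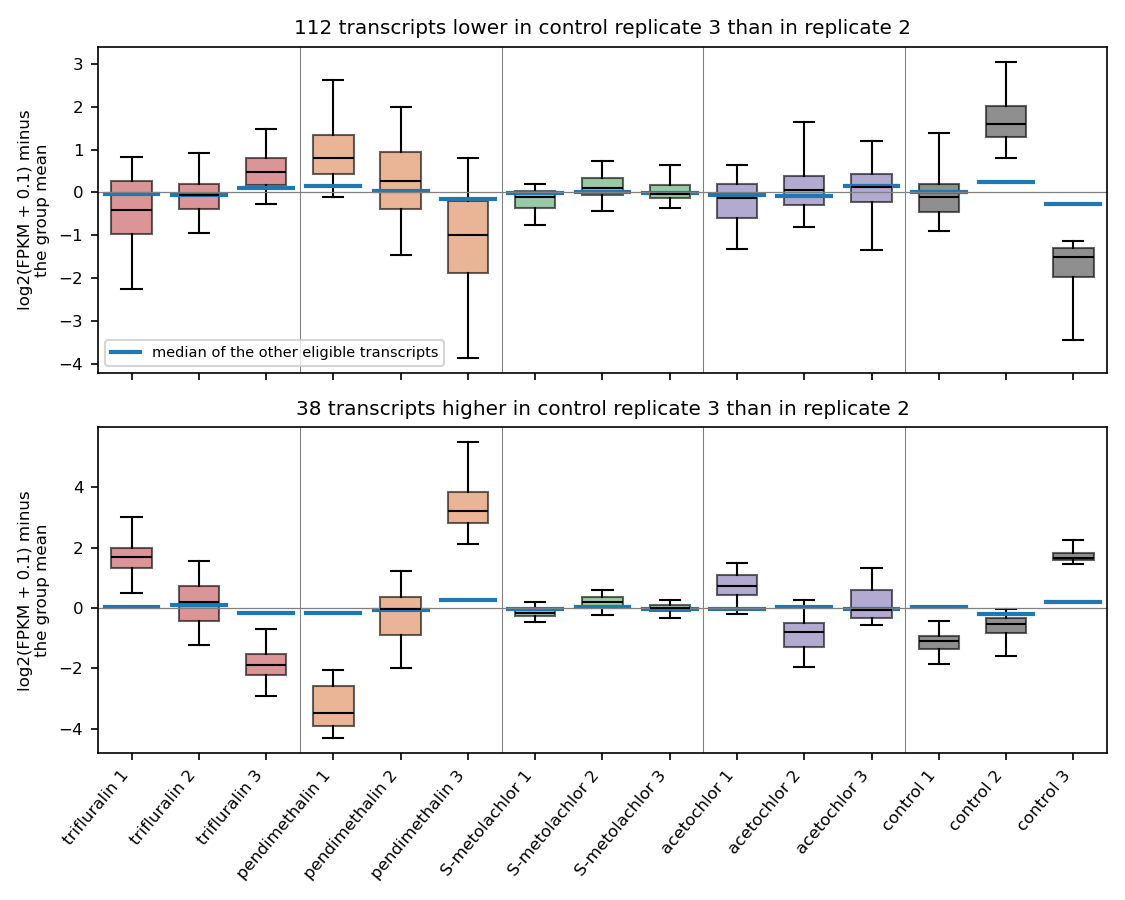
Log2 difference of each library from the mean of its own group. Boxes with median and quartiles show the members of the set of 112 and of the set of 38. Blue lines mark the median of the eligible rows that are no members and have the same control order. The control values follow from the choice. The pendimethalin medians run from 0.80 to -0.99 in the set of 112 and from -3.46 to 3.22 in the set of 38. The S-metolachlor medians stay between -0.16 and 0.20 in both.

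Members of the set of 38 varied together over the treated libraries, most widely within pendimethalin and trifluralin. Their median differences ran from -3.46 to 3.22 in pendimethalin and from -1.89 to 1.69 in trifluralin. In acetochlor they ran from -0.80 to 0.74 and in S-metolachlor from -0.16 to 0.20. The correlations of this set therefore weigh pendimethalin and trifluralin most and S-metolachlor least. With each group's mean removed, the median correlation between pairs of its members over the 12 herbicide libraries was 0.908, and between pairs of the other eligible rows with that control order it was 0.156. In the set of 112 the median was 0.357, against 0.207 in the other eligible rows with that order. Between a member of one set and a member of the other the median was -0.599. All pairs share the same libraries, and these values are a description without a test.

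A pair of transcripts shows the course of the set of 38; both were picked after their values were seen, since they lie closest to the set's median. TRINITY_DN4030_c0_g1_i3_4 had 180, 78.7 and 11.6 FPKM with trifluralin, 8.21, 100.1 and 935 with pendimethalin, 42.4, 78.0 and 50.9 with S-metolachlor, 166, 51.6 and 84.4 with acetochlor, and 68.6, 96.1 and 469 in the control. TRINITY_DN231_c0_g1_i1_5 had 242, 42.1 and 8.55 FPKM with trifluralin, 3.83, 73.2 and 804 with pendimethalin, 49.2, 78.4 and 76.6 with S-metolachlor, 158, 31.5 and 67.2 with acetochlor, and 43.8, 75.3 and 384 in the control. In both, the lowest and the highest of all 15 libraries belonged to the same group, pendimethalin.

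For the set of 112 the corresponding transcripts, picked in the same way, were TRINITY_DN7915_c0_g1_i1_2 and TRINITY_DN4460_c0_g1_i1_5. TRINITY_DN7915_c0_g1_i1_2 had 17.1, 27.1 and 54.2 FPKM with trifluralin, 37.3, 32.9 and 3.84 with pendimethalin, 25.5, 26.8 and 26.2 with S-metolachlor, 22.9, 25.1 and 20.4 with acetochlor, and 6.46, 42.3 and 3.70 in the control. TRINITY_DN4460_c0_g1_i1_5 had 22.7, 24.1 and 56.2 FPKM with trifluralin, 35.2, 18.3 and 8.38 with pendimethalin, 54.4, 58.2 and 63.1 with S-metolachlor, 21.0, 27.8 and 21.0 with acetochlor, and 4.22, 24.9 and 4.05 in the control. The S-metolachlor libraries lay close together in both, and pendimethalin replicate 3 was the lowest treated library.

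The summed counts showed how much of a library the sets took. The set of 38 held 0.489%, 0.142% and 0.0317% of the counts in the trifluralin libraries, 0.0157%, 0.204% and 2.04% with pendimethalin, 0.413%, 0.518% and 0.462% with S-metolachlor, 0.387%, 0.125% and 0.183% with acetochlor, and 0.187%, 0.303% and 1.42% in the control. The set of 112 held 3.49%, 2.91% and 4.57% with trifluralin, 3.73%, 3.20% and 0.974% with pendimethalin, 1.63%, 1.80% and 1.86% with S-metolachlor, 1.73%, 1.58% and 1.67% with acetochlor, and 0.749%, 2.41% and 0.265% in the control. Pendimethalin replicate 3 and control replicate 3 were the only libraries in which the set of 38 took the larger share. Both were sequenced to a depth like the rest, with 24071293 and 24101593 expected counts.

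The ratio of the highest to the lowest library, taken in the same way within each herbicide group, measured how far the members varied there. Its median over the 150 members was 3.19 for trifluralin, 8.39 for pendimethalin, 1.41 for S-metolachlor and 2.34 for acetochlor. Over the 6035 eligible rows that are no members it was 1.35, 1.47, 1.17 and 1.46. Over all members, the pendimethalin median was thus near that of the control libraries that chose them, 8.01, and the S-metolachlor libraries hardly differed. Neither set alone had such close medians. For the set of 112 the median was 4.91 within pendimethalin and 8.13 in the control, and for the set of 38 it was 105 and 6.88.

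A ratio of at least 5.43, that of the last member, was reached by 59 of the 150 members within trifluralin, 89 within pendimethalin, 3 within S-metolachlor and 32 within acetochlor. Some members were low in these groups, so the count was repeated among those with a group mean of at least 10 FPKM. Within trifluralin it was then 46 of 128 members, against 2.40% of the eligible rows held to the same mean. Within pendimethalin it was 84 of 140, against 5.02%. Within acetochlor it was 24 of 127, against 1.48%. Within S-metolachlor it was 1 of 102, against 0.0752%. The counts rest on single libraries. Without pendimethalin replicate 3, 23 members reached the ratio within pendimethalin, without trifluralin replicate 1 6 did within trifluralin and without trifluralin replicate 3 23, and without acetochlor replicate 2 7 did within acetochlor and without acetochlor replicate 3 13. Between 2 libraries a ratio can only be equal or smaller than between 3.

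By set, all 38 members that were higher in control replicate 3 reached that ratio within pendimethalin, with a median of 105, and 36 did within trifluralin, with a median of 12. For the 112 others the median ratio was 4.91 within pendimethalin and 2.45 within trifluralin. Within acetochlor the median was 4.03 in the set of 38 and 2.04 in the set of 112, and within S-metolachlor 1.43 and 1.40. The smaller set thus had the higher median ratio within each herbicide group, by little within S-metolachlor.

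**Figure D4:**
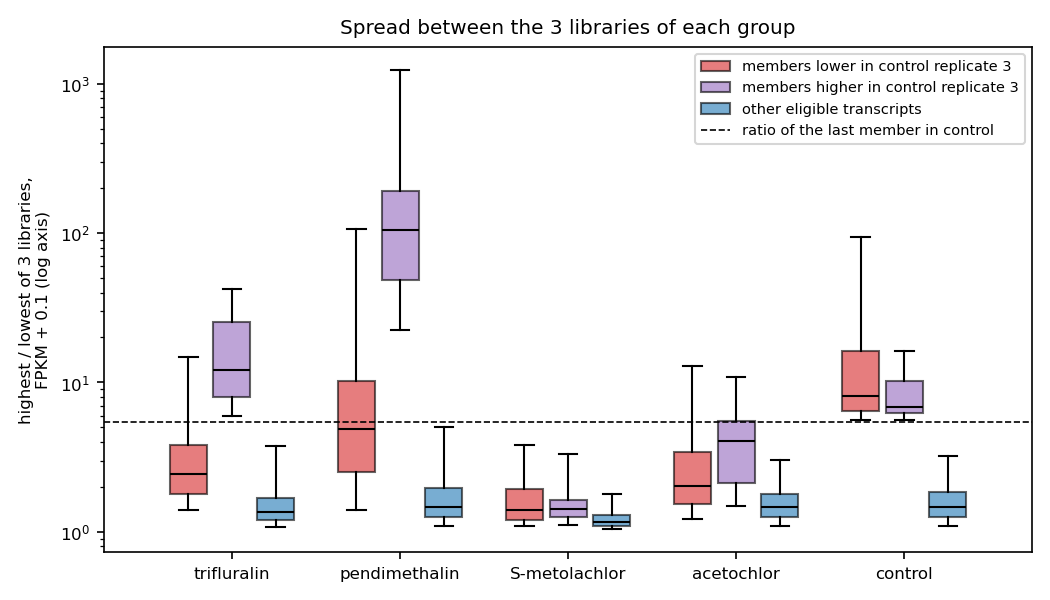
Ratio of the highest to the lowest of the 3 libraries within each group, on a log axis, for the members and for the eligible rows that are no members. The control ratios of the members are fixed by the choice at 5.43 or more, and the members' medians are 3.19 with trifluralin, 8.39 with pendimethalin, 1.41 with S-metolachlor and 2.34 with acetochlor.

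Set against the control, the herbicide groups had levels that often fell inside the wide control range. The median over the members of the group mean was 58.4 FPKM with trifluralin, 69.6 with pendimethalin, 24.4 with S-metolachlor and 29.4 with acetochlor, against 34.0 in the control. The group mean lay between the lowest and the highest control library in 71 members for trifluralin, 92 for pendimethalin, 68 for S-metolachlor and 100 for acetochlor. Among all eligible rows this was so in 27.3%, 33.0%, 23.5% and 40.7%, in the same order. Members were chosen for a wide control range, so such counts follow in part from the choice.

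The sets differed in their levels. In the set of 112 the median group mean was 77.5 FPKM with trifluralin, 68.6 with pendimethalin, 26.4 with S-metolachlor and 32.3 with acetochlor, against 29.9 in the control. Within the set of 38 it was 16.4, 85.0, 20.0 and 20.0 FPKM in the same order, against 54.2 in the control. The high pendimethalin value of the set of 38 comes with the 1 high library described above, whose median level was 227 FPKM, against 1.78 and 17.2 FPKM in pendimethalin replicates 1 and 2.

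The contrasts with the control used the libraries that chose the members, so their counts are given as a description. A transcript is called here where edgeR's quasi-likelihood test gave a Benjamini-Hochberg adjusted p under 0.05 over all 17555 transcripts tested. With trifluralin 18 members were called (15 higher and 3 lower), against 14.7% of all tested transcripts. With pendimethalin 14 were called (11 higher and 3 lower), against 12.9%. With S-metolachlor 57 were called (23 higher and 34 lower), against 46.1%. With acetochlor 10 were called (4 higher and 6 lower), against 9.72%. The members come from the eligible rows, of which 20.03%, 17.15%, 53.57% and 15.07% were called, in the same order. The share of the members was below that of the eligible rows in each of these contrasts. The median standard error of the log2 fold change was 0.86 to 0.89 for members over the 4 contrasts, against 0.23 for all eligible rows. Called with no herbicide were 84 members, against 47.1% of all tested transcripts.

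The counts with the control depended on single control libraries. Without control replicate 2 they were 57 for trifluralin, 45 for pendimethalin and 34 for acetochlor. Of these, 53, 42 and 28 were higher, so the acetochlor calls were then mostly higher and no longer mostly lower. Control replicate 2 was the highest control library in 102 members, so shifts toward higher without it follow in part from the choice. Without control replicate 1 the counts were 4, 3 and 5, and without control replicate 3 they were 9, 9 and 8. All groups share 1 estimate of the spread in this fit, and without pendimethalin replicate 3 the counts were 32 for trifluralin and 32 for pendimethalin. Without trifluralin replicate 3 the trifluralin count was 4, without pendimethalin replicate 2 the pendimethalin count was 6, and without acetochlor replicate 1 the acetochlor count was 6. For S-metolachlor the counts were 68, 44 and 57 without control replicates 2, 1 and 3, with 40, 14 and 18 of them higher, and its split turned to mostly higher without replicate 2. Without pendimethalin replicate 3 the S-metolachlor count was 72. On the log2(FPKM + 0.1) scale with limma, 31 of 58 members called with S-metolachlor were higher, but there all tested transcripts also had a higher median log2 fold change, 0.45, against 0.09 in edgeR. The limma split was 31 of 33 higher for trifluralin, 21 of 22 for pendimethalin and 9 of 15 for acetochlor. In edgeR's quasi-likelihood test, 5515 transcripts had an unadjusted p under 0.05 for trifluralin, among them 51 members. Without control replicates 1, 2 and 3 it was 4505, 6073 and 3976 transcripts, with 39, 90 and 38 members. For pendimethalin it was 5045, then 4082, 5629 and 3824 transcripts, with 36, 22, 76 and 30 members. For acetochlor it was 4378, then 3515, 4693 and 3684 transcripts, with 26, 20, 61 and 26 members.

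The member with the largest rise against the control, with no overlap of libraries, was the same for each herbicide. TRINITY_DN7052_c0_g1_i1_1 had 9834, 3115 and 5522 FPKM with trifluralin, 734, 560 and 256 with pendimethalin, 663, 603 and 602 with S-metolachlor, 3997, 2247 and 2638 with acetochlor, and 28.8, 31.3 and 4.91 in the control. All 12 treated libraries were above all control libraries. The log2 fold change was 8.01 (SE 0.77) for trifluralin, 4.41 (SE 0.65) for pendimethalin, 4.67 (SE 0.66) for S-metolachlor and 7.05 (SE 0.74) for acetochlor. No p is given for members against the control, since the same control values chose them.

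The largest falls were found in other members. TRINITY_DN3308_c0_g2_i1_5 was the lowest by that rule with both dinitroanilines. It had 5.03, 7.16 and 12.5 FPKM with trifluralin, 18.4, 2.99 and 10.9 with pendimethalin, 13.8, 25.8 and 15.8 with S-metolachlor, 3.08, 5.37 and 26.3 with acetochlor, and 245, 69.4 and 26.8 in the control. Every treated library was below every control library, the nearest being 26.3 with acetochlor and 26.8 in the control. The fitted log2 fold change was -4.00 (SE 0.93) with trifluralin and -3.63 (SE 0.92) with pendimethalin. Without control replicate 1 it was -2.70 and -2.34. It was called in 18 of 22 alternatives for trifluralin and in 19 of 22 for pendimethalin. Each of these used control libraries that chose the member, so the calls are a description and no support for the fall.

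With S-metolachlor the largest fall was that of TRINITY_DN13442_c0_g1_i1_1. It had 5.64, 2.76 and 1.09 FPKM with trifluralin, 9.35, 2.56 and 1.22 with pendimethalin, 0, 0.189 and 0.367 with S-metolachlor, 0, 0.214 and 0.639 with acetochlor, and 212, 159 and 4.21 in the control. Its log2 fold change with S-metolachlor was -9.31 (SE 1.55). With acetochlor the largest fall was that of TRINITY_DN8733_c0_g2_i1_1, whose levels are given above, with a log2 fold change of -8.91 (SE 1.87). In both, control replicate 3 was closer to the treated libraries than to the other control libraries.

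In all 4 contrasts, which share the control libraries, 5 members were called in 1 direction. The 2 higher ones, against 1.58% of all tested transcripts, were TRINITY_DN7052_c0_g1_i1_1 and TRINITY_DN6130_c0_g1_i2_4. The 3 lower ones, against 1.65%, were TRINITY_DN3308_c0_g2_i1_5, TRINITY_DN13442_c0_g1_i1_1 and TRINITY_DN7079_c0_g3_i1_2. Nothing is read from these counts, since the contrasts used the libraries of the choice. TRINITY_DN6130_c0_g1_i2_4, named after its values were seen, had 37.9, 75.1 and 103 FPKM with trifluralin, 138, 273 and 91.2 with pendimethalin, 141, 121 and 196 with S-metolachlor, 112, 260 and 42.3 with acetochlor, and 9.37, 20.8 and 2.81 in the control. All 12 treated libraries were above the control range. TRINITY_DN7079_c0_g3_i1_2, named in the same way, had 2.94 to 13.1 FPKM in the treated libraries and 59.0, 28.1 and 6.25 in the control, where replicate 3 fell inside the treated range.

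Contrasts between herbicides use no control library and are independent of the choice. They were tested in a fit of the 12 treated libraries over 17073 transcripts, which included all 150 members, by edgeR's quasi-likelihood test with Benjamini-Hochberg adjustment. Between the dinitroanilines, pendimethalin against trifluralin, 1 member was called lower and none higher, against 0.346% of all tested transcripts, and 13 members had an unadjusted p under 0.05, against 7.29% of all tested transcripts. Between the chloroacetanilides, acetochlor against S-metolachlor, 50 members were called, 34 higher and 16 lower. That is 33.3% of the members, against 38.0% of all tested transcripts. For S-metolachlor against pendimethalin 60 members were called, 10 higher and 50 lower, against 34.1%. For trifluralin against acetochlor 4 members were called, all higher, against 1.45%. Of the eligible rows, from which the members come, 0.372%, 43.3%, 40.9% and 1.89% were called, in the order of these contrasts. The share of the members was thus near that of the eligible rows for S-metolachlor against pendimethalin. It was lower for acetochlor against S-metolachlor. In the other contrasts it was higher, with only 1 and 4 members called. In limma on log2(FPKM + 0.1) the median of all transcripts was -0.29 for acetochlor against S-metolachlor and 0.18 for S-metolachlor against pendimethalin, while in edgeR it was 0.00 and -0.02.

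These counts also rested in part on single libraries. Without S-metolachlor replicate 1 or 3, acetochlor against S-metolachlor had 32 calls in either case, and S-metolachlor against pendimethalin had 38 and 36. For pendimethalin against trifluralin there were 0 calls without pendimethalin replicate 2 (18 members and 1273 transcripts in all with an unadjusted p under 0.05 in edgeR), 2 without pendimethalin replicate 3 and 3 without acetochlor replicate 3. For trifluralin against acetochlor there were 23 without pendimethalin replicate 3, 8 without pendimethalin replicate 1, 2 without acetochlor replicate 2 and 0 without trifluralin replicate 3 (31 members and 2536 transcripts in all with an unadjusted p under 0.05 in edgeR). With all libraries, DESeq2 called 4 members for pendimethalin against trifluralin and 30 for trifluralin against acetochlor. The last contrast had 1 call without trifluralin replicate 1 or 2, any S-metolachlor library or acetochlor replicate 1.

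The median log2 fold change of the members was -1.25 for S-metolachlor against pendimethalin, 0.48 for acetochlor against S-metolachlor, 0.66 for trifluralin against acetochlor and 0.04 for pendimethalin against trifluralin. Over all tested transcripts the medians were -0.02, 0.00, -0.03 and 0.04 in that order. In 28 members S-metolachlor was called below both acetochlor and pendimethalin, against 12.7% of all tested transcripts, and in 8 it was called above both, against 12.6%. The S-metolachlor libraries enter both contrasts. In at least 1 of the contrasts between herbicides 74 members were called, against 47.0% of all tested transcripts, a share close to that of the members. Over the eligible rows alone this share was not taken. The median standard error was 0.72 to 0.76 for members over these contrasts, against 0.22 for all eligible rows.

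The set of 38 gave few calls in these contrasts. It held 1 of the 50 calls of acetochlor against S-metolachlor and 3 of the 60 calls of S-metolachlor against pendimethalin, and none of the calls of the other contrasts. The set of 112 held the rest. In the set of 38, 2.63% were called for acetochlor against S-metolachlor and 7.89% for S-metolachlor against pendimethalin. In the set of 112 it was 43.8% and 50.9%, over the eligible rows 43.3% and 40.9%, and over all tested transcripts 38.0% and 34.1%. Any link between these shares and the spread within pendimethalin and trifluralin was not tested.

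The largest rises with acetochlor relative to S-metolachlor were those of TRINITY_DN11429_c0_g1_i1_5 and TRINITY_DN7701_c0_g1_i1_4. TRINITY_DN11429_c0_g1_i1_5 had 323, 129 and 209 FPKM with acetochlor, against 0.436, 0.699 and 1.49 with S-metolachlor. It had 44.8, 55.3 and 118 FPKM with trifluralin, 16.4, 56.6 and 17.2 with pendimethalin, and 22.3, 63.7 and 9.33 in the control. The S-metolachlor libraries were thus the lowest of all 15 and the acetochlor libraries the highest. The log2 fold change was 8.11 (SE 0.81, adjusted p = 8.65e-05, edgeR's quasi-likelihood test).

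TRINITY_DN7701_c0_g1_i1_4 followed the same course. It had 176, 71.4 and 113 FPKM with acetochlor, against 0.432, 0.482 and 0.970 with S-metolachlor, with 27.5, 27.2 and 55.8 with trifluralin, 7.82, 31.6 and 7.54 with pendimethalin, and 13.7, 38.3 and 4.61 in the control. The log2 fold change was 7.73 (SE 0.79, adjusted p = 9.8e-05, edgeR's quasi-likelihood test). The 2 profiles correlated with r = 0.997 over the 15 libraries, as did those of TRINITY_DN6338_c0_g1_i1_4 and TRINITY_DN7450_c0_g1_i4_3. Of the 11175 pairs of members, 56 had an r of at least 0.95 and 5 an r of at least 0.99. Reads shared between near-identical transcripts may have been divided between them by the counting, so such pairs may not be independent measurements.

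The largest falls in the same contrast were those of TRINITY_DN5533_c0_g1_i1_3 and TRINITY_DN2984_c0_g1_i2_1. TRINITY_DN5533_c0_g1_i1_3 had 10.5, 2.46 and 3.59 FPKM with acetochlor, against 217, 273 and 317 with S-metolachlor. With trifluralin it had 24.9, 3.77 and 5.85 FPKM, with pendimethalin 1.12, 2.54 and 38.8, and in the control 8.67, 13.5 and 48.3. The S-metolachlor libraries were above all others, and replicate 3 was the highest within pendimethalin and within the control. In edgeR's quasi-likelihood test its log2 fold change was -5.43 (SE 1.35, adjusted p = 0.0099) for acetochlor against S-metolachlor and 4.18 (SE 1.26, adjusted p = 0.0257) for S-metolachlor against pendimethalin. The call against pendimethalin was lost without pendimethalin replicate 1 (adjusted p = 0.051), pendimethalin replicate 2 (0.07) or S-metolachlor replicate 3 (0.0578), and with only the compared groups in the fit (0.054).

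TRINITY_DN2984_c0_g1_i2_1 had 33.1, 71.0 and 23.4 FPKM with acetochlor, against 760, 784 and 734 with S-metolachlor. It had 120, 324 and 450 FPKM with trifluralin, 599, 309 and 21.6 with pendimethalin, and 37.6, 112 and 13.8 in the control. The S-metolachlor libraries were the highest of all and close together, and replicate 3 was the lowest within pendimethalin and within the control. The log2 fold change was -3.98 (SE 0.95, adjusted p = 0.00837, edgeR's quasi-likelihood test).

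For S-metolachlor against pendimethalin, the other large rise was that of TRINITY_DN4329_c0_g2_i1_3. It had 51.1, 64.2 and 47.4 FPKM with S-metolachlor, against 5.97, 2.75 and 9.48 with pendimethalin. In the other libraries it had 5.35, 3.30 and 6.19 FPKM with trifluralin, 5.41, 7.32 and 12.1 with acetochlor, and 5.69, 30.9 and 4.03 in the control. Its log2 fold change was 3.11 (SE 0.43, adjusted p = 0.000554, edgeR's quasi-likelihood test). The S-metolachlor libraries did not overlap with any other library.

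The largest falls with S-metolachlor relative to pendimethalin were those of TRINITY_DN7453_c0_g1_i1_3 and TRINITY_DN6169_c0_g1_i1_4. TRINITY_DN7453_c0_g1_i1_3 had 0.954, 0.419 and 0.322 FPKM with S-metolachlor, against 516, 365 and 2.72 with pendimethalin. It had 17.7, 515 and 716 FPKM with trifluralin, 5.87, 4.09 and 5.89 with acetochlor, and 13.9, 88.8 and 3.58 in the control. The log2 fold change was -9.04 (SE 1.86, adjusted p = 0.00432, edgeR's quasi-likelihood test). Pendimethalin replicate 3 and trifluralin replicate 1 were far below the other libraries of their groups.

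TRINITY_DN6169_c0_g1_i1_4 had 2.41, 3.23 and 3.29 FPKM with S-metolachlor, against 696, 543 and 6.65 with pendimethalin. With trifluralin it had 55, 559 and 779 FPKM, with acetochlor 11.8, 6.31 and 11.7, and in the control 39.8, 124 and 14.3. Its log2 fold change was -7.14 (SE 1.46, adjusted p = 0.00423, edgeR's quasi-likelihood test). The same libraries, pendimethalin replicate 3 and trifluralin replicate 1, were the low ones of their groups.

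**Figure D5:**
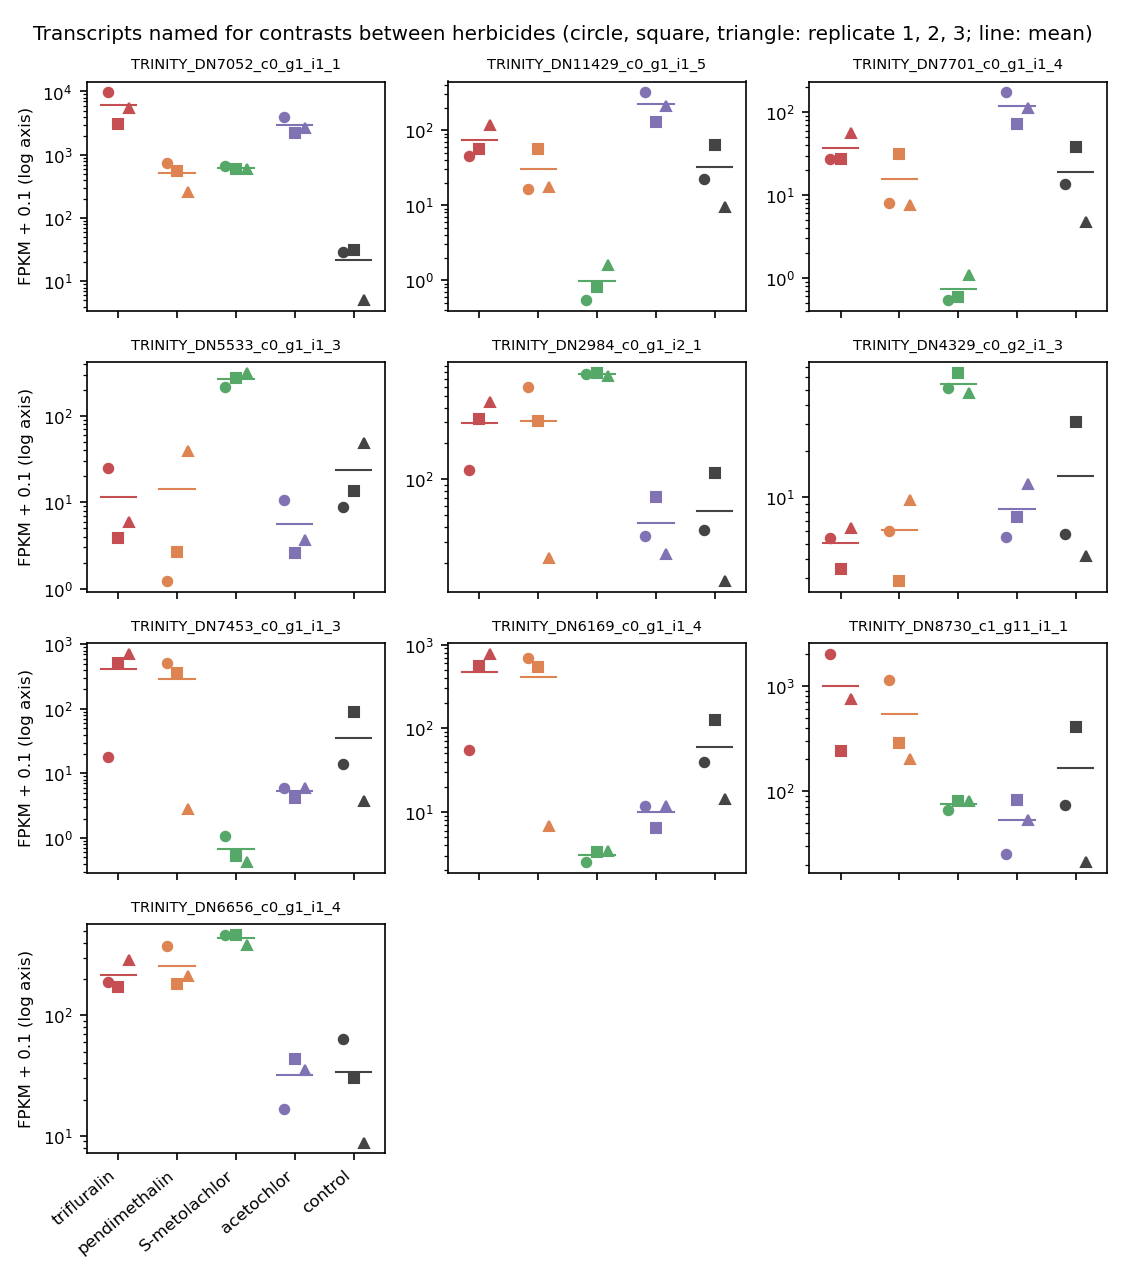
FPKM plus 0.1 on a log axis in each library (points, 3 per group) for the named transcripts of the contrasts between herbicides. Trifluralin is on the left and the control on the right. In TRINITY_DN11429_c0_g1_i1_5 the acetochlor points lie at 129 to 323 FPKM and the S-metolachlor points at 0.436 to 1.49.

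Between the dinitroanilines the 1 called member was TRINITY_DN7052_c0_g1_i1_1, whose levels are given above. The log2 fold change was -3.60 (SE 0.49, adjusted p = 0.0121, edgeR's quasi-likelihood test) for pendimethalin against trifluralin. All pendimethalin libraries were below all trifluralin libraries. The call was lost without pendimethalin replicate 2 (adjusted p = 0.0683) and with only these groups in the fit (0.302).

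For trifluralin against acetochlor the named rises were those of TRINITY_DN8730_c1_g11_i1_1 and TRINITY_DN6656_c0_g1_i1_4. TRINITY_DN8730_c1_g11_i1_1 had 2021, 239 and 744 FPKM with trifluralin, against 25.2, 82.6 and 52.5 with acetochlor. It had 1145, 289 and 203 FPKM with pendimethalin, 65.7, 80.7 and 80.0 with S-metolachlor, and 74.4, 403 and 21.0 in the control. Its log2 fold change was 4.13 (SE 0.87, adjusted p = 0.0473, edgeR's quasi-likelihood test), and it kept this call in 6 of 19 alternatives. The trifluralin values differed more among themselves than the acetochlor values did.

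TRINITY_DN6656_c0_g1_i1_4 had 188, 170 and 286 FPKM with trifluralin, against 16.6, 43.7 and 35.0 with acetochlor. It had 376, 181 and 212 FPKM with pendimethalin, 467, 466 and 384 with S-metolachlor, and 63.5, 29.9 and 8.64 in the control. Its log2 fold change was 2.65 (SE 0.37, adjusted p = 0.0153, edgeR's quasi-likelihood test). The trifluralin and acetochlor libraries did not overlap, and the call was lost without trifluralin replicate 3 (adjusted p = 0.056), with only these groups in the fit (0.0535) and with the replicate number as a block (0.0556).

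Beyond levels, only the relative length and the form of the names could be compared. The median relative length of the members, taken from the ratio of expected count to FPKM, was 0.910 of that of all eligible rows. The last digit of a transcript name takes 5 values, and no source used here says what they mean. Digits 1 to 5 ended the names of 23.3%, 16.7%, 22%, 20.7% and 17.3% of the members, and of 24.2%, 15.4%, 21.8%, 18.2% and 20.4% of the eligible rows. In the set of 38, digits 3 and 4 each ended 28.9% of the names and digit 2 7.89%, which is 3 transcripts.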

How the data were processed

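RNA of 15 mycelium libraries was analysed from the authors' deposited tables. One deposited table holds expected counts, that is estimated fragments per transcript that need not be whole numbers. The other deposited table holds FPKM, made by the authors from the same fragments by scaling for transcript length and library total. The tools named are DESeq, Bowtie2 and Trimmomatic, and the build is mm10, a mouse build, per the submitters' processing notes; the row names are instead those of a Trinity assembly. No source used here names the counting program, the settings of the assembler or the handling of strand.

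Members were found in the FPKM table. The members, the lists and the naming rule were chosen with earlier results of these data known. Expected counts were rounded to whole numbers, filtered in edgeR 4.0.16 by filterByExpr with a minimum count of 10 and a minimum total of 15, scaled by TMM and fitted with glmQLFit in R 4.3.3, with 1 mean per group. A fit of all 15 libraries served the contrasts with the control, and a fit of the 12 herbicide libraries served the contrasts between herbicides. P-values were adjusted over all transcripts tested by Benjamini-Hochberg. The standard error was the log2 fold change divided by the root of the F statistic. Depth was similar in all libraries, and each group had 3.

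Named transcripts were those with the largest control ratios per library standing apart, the rows at the limit of the list, and, per contrast, the called members with the largest change among those whose libraries did not overlap and whose higher group averaged 10 CPM or more: up to 2 per direction between herbicides and 1 per direction against the control. Transcripts named outside this rule are marked in the text. Alternatives used DESeq2 1.42.0, limma 3.58.1 on log2(FPKM + 0.1) and log2(FPKM + 1), other filters and fits, and left-out libraries. The fits were tested on simulated data. No gene lists could be counted, since no transcript was paired with a gene name.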

Additional observations from a re-analysis of the deposited data

Results flagged for a closer look

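Each of the following members differed between herbicides by a test of that difference, edgeR's quasi-likelihood test with Benjamini-Hochberg adjustment; log2 fold changes are given. For pendimethalin against trifluralin it was TRINITY_DN7052_c0_g1_i1_1 (-3.60). For acetochlor against S-metolachlor they were TRINITY_DN11429_c0_g1_i1_5 (8.11), TRINITY_DN7701_c0_g1_i1_4 (7.73), TRINITY_DN5533_c0_g1_i1_3 (-5.43) and TRINITY_DN2984_c0_g1_i2_1 (-3.98). For S-metolachlor against pendimethalin they were TRINITY_DN5533_c0_g1_i1_3 (4.18), TRINITY_DN4329_c0_g2_i1_3 (3.11), TRINITY_DN7453_c0_g1_i1_3 (-9.04) and TRINITY_DN6169_c0_g1_i1_4 (-7.14). For trifluralin against acetochlor they were TRINITY_DN8730_c1_g11_i1_1 (4.13) and TRINITY_DN6656_c0_g1_i1_4 (2.65). Of 19 alternatives each, the call was lost in 13 for TRINITY_DN8730_c1_g11_i1_1, in 3 for TRINITY_DN6656_c0_g1_i1_4 and in 2 for TRINITY_DN7052_c0_g1_i1_1. For TRINITY_DN5533_c0_g1_i1_3, S-metolachlor against pendimethalin, it was lost in 4. The other results of this list kept the call in all 19. Groups of 3 libraries are too small for the search for single outlying samples.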

How the results depend on the processing

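Of 203 alternative values of the counts, 144 stayed within 1.5 times the reported count; the cause of the others was not tested. With DESeq2, 39 members were called for trifluralin, 26 for pendimethalin and 18 for acetochlor against the control, 4 for pendimethalin against trifluralin and 30 for trifluralin against acetochlor. In the last of these, 52 members and 4245 transcripts in all had an unadjusted p under 0.05 in DESeq2, against 42 and 3692 in edgeR. With limma on log2(FPKM + 0.1) and on log2(FPKM + 1) the counts were 33 and 32 for trifluralin and 22 and 22 for pendimethalin against the control, and with the first of these 7 for trifluralin against acetochlor. With only the compared groups in the fit they were 5 for trifluralin, 1 for pendimethalin and 6 for acetochlor against the control, 0 for pendimethalin against trifluralin (6 members with an unadjusted p under 0.05 in edgeR), 85 for acetochlor against S-metolachlor and 2 for trifluralin against acetochlor. Without the filter on low counts the last contrast had 2.

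Leaving out 1 library at a time gave 4 to 57 members for trifluralin, 3 to 45 for pendimethalin, 44 to 72 for S-metolachlor and 5 to 34 for acetochlor against the control. It gave 0 to 3 for pendimethalin against trifluralin, 32 to 67 for acetochlor against S-metolachlor, 36 to 68 for S-metolachlor against pendimethalin and 0 to 23 for trifluralin against acetochlor. The numbers over all transcripts also moved. With an unadjusted p under 0.05 in edgeR they ran from 3976 to 6073 for trifluralin against the control. Without trifluralin replicate 3 the trifluralin count against the control was 4 and that for trifluralin against acetochlor 0, and without pendimethalin replicate 3 the counts were 32 for both dinitroanilines against the control and 23 for trifluralin against acetochlor. Members as variable within a group as the last member numbered 6 to 45 in trifluralin, 23 to 76 in pendimethalin, 0 to 1 in S-metolachlor and 7 to 16 in acetochlor.

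No label ties same-numbered libraries of different groups to a shared culture or day, and they were not taken as pairs: over 30 pairs their deviations correlated between -0.439 and 0.399 (the highest for replicate 3 of pendimethalin and control), over 0.1 in 5 and under -0.1 in 6. With the replicate number as a block, 18, 16, 55 and 10 members were called for trifluralin, pendimethalin, S-metolachlor and acetochlor against the control, 1 for pendimethalin against trifluralin, 46 for acetochlor against S-metolachlor, 47 for S-metolachlor against pendimethalin and 0 for trifluralin against acetochlor, where 43 members had an unadjusted p under 0.05 in edgeR and DESeq2 without the block called 30.

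With a mean of at least 20 FPKM, 7 members were set apart by control replicate 1. Where the larger gap had to be at least 2 times the smaller, replicates 1, 2 and 3 set apart 1, 32 and 42 members. A list chosen with 1 FPKM added shared 144 members with the list used, one with a mean of at least 20 FPKM shared 108 and one chosen on CPM shared 129. In alternatives added after the data were seen, pendimethalin replicate 3 was the lowest in 81 members of the set of 112 on TMM-scaled CPM and in 80 with a pendimethalin mean of at least 10 FPKM, and the highest in 38 and 34 of the set of 38. Of 385 alternatives of the named transcripts' fold changes, 356 kept the call, 29 lost it and 0 reversed. Part of these are contrasts with the control, whose libraries chose the members, so for those the calls are a description only.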
